A study of Mus musculus with 4 samples.

Results

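Neutrophils draw most of their energy from glycolysis, and the 32 genes described here are its enzymes and regulators, the transporters of glucose and lactate, the enzymes of the pentose phosphate pathway, and the hypoxia-inducible transcription factor gene Hif1a with genes it is known to control. They were found by symbol in the deposited table of 54532 genes, where they held 33 rows, because Aldoa is listed as separate gene models. One of those models, with counts of 0, 2, 0 and 5, was too low to test, and the other 32 rows were tested, so that each symbol had 1 tested row. The symbols were split into 18 enzymes and regulators of glycolysis and glycogen breakdown, 3 transporters, 4 pentose phosphate enzymes and 7 genes of the HIF group.

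RNA was sequenced from neutrophils of the bone marrow of wild-type mice, 2 libraries from cells given DMSO, a common solvent used here as the control, and 2 from cells given Aβ40. Per the design text, Aβ40, the amyloid-beta peptide of cerebral amyloid angiopathy, was given at 20 µg/ml for 4 h, with no volume or time named for DMSO, to ask how it induces neutrophil extracellular traps (NETs), webs of chromatin that these cells release. The labels used here do not name the mice's strain, age or sex or the way the neutrophils were purified. They also do not say if replicate libraries stem from different mice or cultures, so the p-values reflect the spread of these 4 libraries alone, which may be technical. Total counts ran from 17212264 to 19524125 per library, and 1 count was worth 0.0523 to 0.0585 CPM (counts scaled to a common library size, with TMM correction for composition).

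Glycolysis splits glucose into pyruvate, which lactate dehydrogenase turns into lactate for export, and it yields ATP without mitochondria, of which mature neutrophils hold few. The pentose phosphate pathway branches from glucose 6-phosphate and makes NADPH, the electron source of the NADPH oxidase and thus of the respiratory burst that precedes many forms of NET release. HIF is a transcription factor that prolyl hydroxylases mark for destruction when oxygen is at hand, and it is known to induce glycolytic genes, glucose transporters and angiogenic factors.

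With Aβ40, 0 of the 32 members were called higher and 0 lower, against 0.126% and 0% of all 13479 tested genes. A call here means a Benjamini-Hochberg adjusted p, taken over all tested genes, below 0.05 in edgeR's quasi-likelihood test. DESeq2 also called 0 members in either direction. The smallest adjusted p among the members was 0.296, for Gapdh. At an unadjusted p under 0.05 there were 4 members, Bnip3 on the higher side and Hk3, Gapdh and Vegfa on the lower, or 12.5% against 12.2% of all tested genes. The median log2 fold change (Aβ40 over DMSO) was 0.04 over the members and 0.01 over all tested genes, with 18 members above 0 and 14 below. For 8 members each Aβ40 library exceeded each DMSO library (25.0%, against 23.2% of all tested genes) and for 11 each was below (34.4%, against 21.9%), and such members are described as apart in what follows. The other 13 overlapped. At a mean of at least 20 CPM, 25.8% of members were apart toward higher and 32.3% toward lower values. Of all tested genes at that level, 21.7% and 27.7% were. The 95% confidence interval lay within a 2-fold change either way for 29 of 32 members, against 56.5% of all tested genes and 89.2% of those with a mean of at least 20 CPM. The exceptions were Gapdh, G6pdx and Pfkm.

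The DMSO libraries differed from each other in several members. DMSO 1 was the lowest of the 4 libraries for 15 members (46.9%, against 27.9% of all tested genes), while DMSO 2 was the lowest for 3 (9.38%, against 28.8%). The DMSO pair differed by more than 1.5-fold in 6 members, Gapdh, Pgam1, G6pdx, Pfkfb4, Slc2a3 and Pfkfb3 (18.8%, against 23.1% of all tested genes), and the Aβ40 pair in 0 (against 13.3%). Among genes that averaged 20 CPM or more, the DMSO pair differed so in 19.4% of members and 14.0% of all tested genes, and the Aβ40 pair in 0 members and 1.98% of genes. Across the members, Spearman's correlation of DMSO 1 with the other libraries was between 0.915 and 0.934, and that among the other 3 libraries between 0.976 and 0.992. Over all genes DMSO 1 did not stand apart in this way, at 0.974 to 0.982 with the others, against 0.977 to 0.987 among the other 3. Without DMSO 2, the log2 fold change was 0.92 for Pgam1, 0.61 for Pfkfb4, 1.10 for G6pdx, -2.90 for Gapdh and -0.54 for both Pgd and Tkt. Without DMSO 1 it was -0.45, -0.28, 0.02, -0.42, -0.27 and -0.22 for these genes in that order. Hk3 was at -0.25 without DMSO 2 and -0.62 without DMSO 1. A test with 1 DMSO library left assumes that this library varies as the Aβ40 pair does. Calls over all tested genes also rose in such fits, so calls from them are not given.

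**Figure D1:**
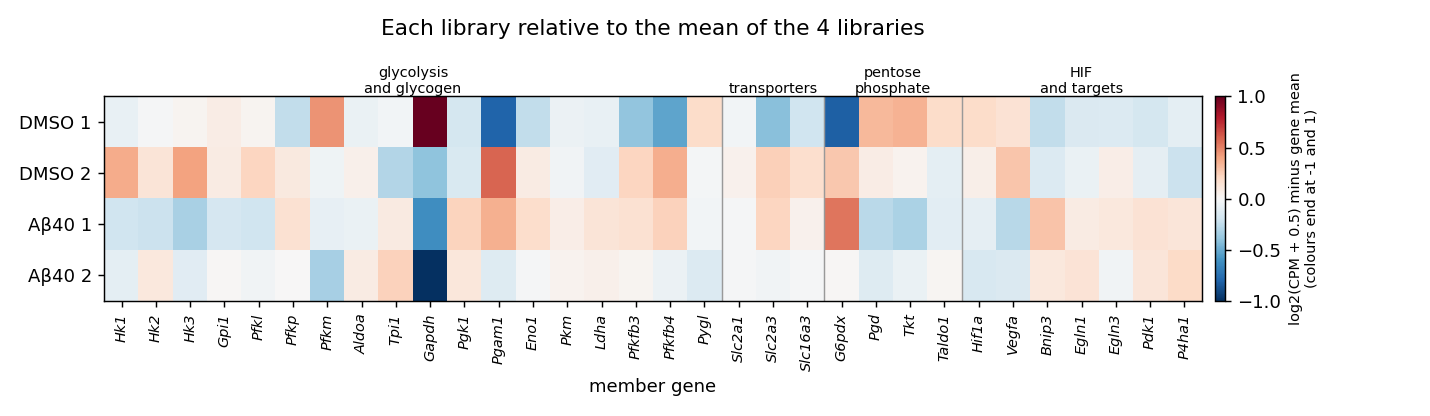
Each column is a member gene and each row a library; the colour is log2(CPM + 0.5) minus that gene's mean over the 4 libraries, with colours ending at -1 and 1. DMSO 1 carries the strongest departures, low for Pgam1 and G6pdx and high for Gapdh.

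The libraries carried neutrophil RNA. The 12 neutrophil markers, among them S100a8, S100a9, Ly6g and Ltf, summed to 129518 CPM in DMSO 1 and 93222 CPM in DMSO 2. In Aβ40 1 and Aβ40 2 the sum was 134889 and 128102 CPM. Of these 12 markers 0 were called by edgeR, with 7 log2 fold changes above 0 and 5 below. At an unadjusted p under 0.05 in that test, 0 were on the higher side and 2 on the lower. Markers of other marrow cells were present beside them and some differed between the groups. Of 12 B cell markers 7 were called higher with Aβ40, and their sum was 1183 to 1197 CPM with DMSO and 1958 to 2060 CPM with Aβ40. Of 8 eosinophil markers 1 was called higher, with a sum of 1365 to 1623 CPM and 3566 to 3611 CPM. Of 11 tested T and NK cell markers 1 was called higher, with a sum of 87.7 to 93.1 CPM and 137 to 147 CPM. At an unadjusted p under 0.05 in edgeR's test, 91.7% of B cell, 100% of eosinophil and 63.6% of T and NK cell markers were higher. On the lower side there were 0, and 6.51% of all tested genes were on the higher side. Of the tested markers of monocytes and macrophages (10), red cells (8) and platelets (4), 0 were called by edgeR. At an unadjusted p under 0.05, 4 monocyte and macrophage markers and 1 red cell marker were on the higher side and 0 on the lower. For monocytes and macrophages that was 40% of the markers, against 6.51% of all tested genes on the higher side. The sums for monocyte and macrophage, red cell and platelet markers were 2512 to 2631, 2130.0 to 5053 and 29.3 to 34.1 CPM with DMSO. With Aβ40 they were 2966 to 3429, 3507 to 3659 and 28.6 to 30.2 CPM. The red cell sum was 5053 CPM in DMSO 1 and 2130.0 CPM in DMSO 2, the lowest of the libraries. The NK cell marker Ncr1 had 2, 0, 6 and 5 counts and the platelet marker Gp1bb 0 in all 4 libraries. Many of the genes described here are also expressed in these cells, and the part of other cells in their values was not tested. In bulk RNA a change in the number of cells of a type and a change of RNA per cell cannot be told apart.

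To show the regulatory sequence of the group, the 250 bases before the start of 4 genes are printed from RefSeq (build GRCm38.p6), 5′ to 3′ on the gene's strand. Bnip3, P4ha1 and Pgk1 were higher in both Aβ40 libraries than in both DMSO libraries and Vegfa was lower in both, none of them called. Capitals mark the core letters of the hypoxia response element to which HIF binds, ACGTG and GCGTG, searched on both strands, so that they read CACGT and CACGC where they lie on the other strand. The windows are chr7:138909507-138909756 (minus strand), chr10:59323046-59323295 (plus strand), chrX:106186850-106187099 (plus strand) and chr17:46032378-46032627 (minus strand).
Bnip3: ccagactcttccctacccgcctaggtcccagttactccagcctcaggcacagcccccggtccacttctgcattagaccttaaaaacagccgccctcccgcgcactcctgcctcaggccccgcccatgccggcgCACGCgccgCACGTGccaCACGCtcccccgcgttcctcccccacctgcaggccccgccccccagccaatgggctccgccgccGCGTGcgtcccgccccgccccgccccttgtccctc
P4ha1: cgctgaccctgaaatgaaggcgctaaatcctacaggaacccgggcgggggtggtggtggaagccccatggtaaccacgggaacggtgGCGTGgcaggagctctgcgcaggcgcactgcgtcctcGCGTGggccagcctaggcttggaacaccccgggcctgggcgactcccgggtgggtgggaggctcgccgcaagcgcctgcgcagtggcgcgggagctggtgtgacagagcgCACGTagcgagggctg
Pgk1: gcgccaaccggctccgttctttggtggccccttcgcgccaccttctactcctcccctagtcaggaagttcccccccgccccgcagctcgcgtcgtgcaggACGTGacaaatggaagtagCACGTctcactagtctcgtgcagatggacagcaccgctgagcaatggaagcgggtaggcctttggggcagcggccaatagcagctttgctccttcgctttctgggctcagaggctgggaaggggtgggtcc
Vegfa: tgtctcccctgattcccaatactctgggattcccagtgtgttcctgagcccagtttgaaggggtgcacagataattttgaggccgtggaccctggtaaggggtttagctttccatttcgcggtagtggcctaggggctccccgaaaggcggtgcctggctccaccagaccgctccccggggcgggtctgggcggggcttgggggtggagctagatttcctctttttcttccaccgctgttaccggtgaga
Counting overlapping matches apart, the core was found 5 times before Bnip3, 3 times before P4ha1, 2 times before Pgk1 and 0 times before Vegfa. These 4 genes do not stand for all members of their direction. Among other members higher in both Aβ40 libraries, Ldha held 5 cores and Tpi1 and Pkm 0. Among those lower in both, Hif1a held 3, Pygl 2 and Hk1 and Gpi1 0. A link between the core and the direction was not tested. A RefSeq window was at hand for 31 of the 32 members, the start farthest upstream being used where a gene had several, and 25 of them (80.6%) held at least 1 core, against 38.6% of the windows of all 27026 genes in the table, noncoding ones included. Base composition was not matched between these sets. The core was found in 13 of 18 windows of glycolytic and glycogen genes, 2 of 2 of transporters, 4 of 4 of pentose phosphate enzymes and 6 of 7 of the HIF group. A match describes these letters only, and its absence says nothing of sites farther away.

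Levels can be compared between genes only per gene length, as FPKM (fragments scaled to gene length and library size), here as the authors deposited them. All values for 4 libraries are given below in the order DMSO 1, DMSO 2, Aβ40 1 and Aβ40 2, and a value with its SE is a log2 fold change of Aβ40 over DMSO. Taldo1, transaldolase of the non-oxidative pentose phosphate branch, had the highest level of the members, at 517, 426, 416 and 457 FPKM. Next came Aldoa, the aldolase that cleaves fructose 1,6-bisphosphate, at 374, 406, 369 and 412 FPKM, and Ldha, lactate dehydrogenase, at 311, 303, 353 and 337 FPKM. The ranges of these 3 genes did not overlap. Pgk1, phosphoglycerate kinase, at 254, 258, 331 and 308 FPKM, overlapped in range with Ldha above it and with Eno1, the enolase, below it, at 213, 267, 282 and 249 FPKM. Pkm, the pyruvate kinase gene of myeloid cells, was at 212, 214, 227 and 224 FPKM, and overlapped with Eno1.

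Where an enzyme has several genes, a fixed order of levels held in all 4 libraries. Among the hexokinases, which trap glucose in the cell as glucose 6-phosphate, Hk3 stood at 51.6, 67, 39.9 and 46.5 FPKM, Hk2 at 18.2, 20.1, 15.6 and 19.6 FPKM and Hk1 at 4.77, 6.50, 4.33 and 4.66 FPKM, with no overlap between the 3. Of the phosphofructokinases, the committed step of glycolysis, Pfkl was at 11.8, 13.4, 9.91 and 11.2 FPKM, Pfkp at 4.46, 5.67, 5.81 and 5.28 FPKM and the muscle form Pfkm at 0.671, 0.433, 0.413 and 0.325 FPKM, again without overlap. The glucose transporter Slc2a3 (GLUT3), at 34.1, 53.8, 52.2 and 44.3 FPKM, and the lactate carrier Slc16a3 (MCT4), at 32.6, 42.1, 38.2 and 36.9 FPKM, overlapped each other and lay above Slc2a1 (GLUT1), at 26, 27.3, 25.9 and 26.1 FPKM.

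**Figure D2:**
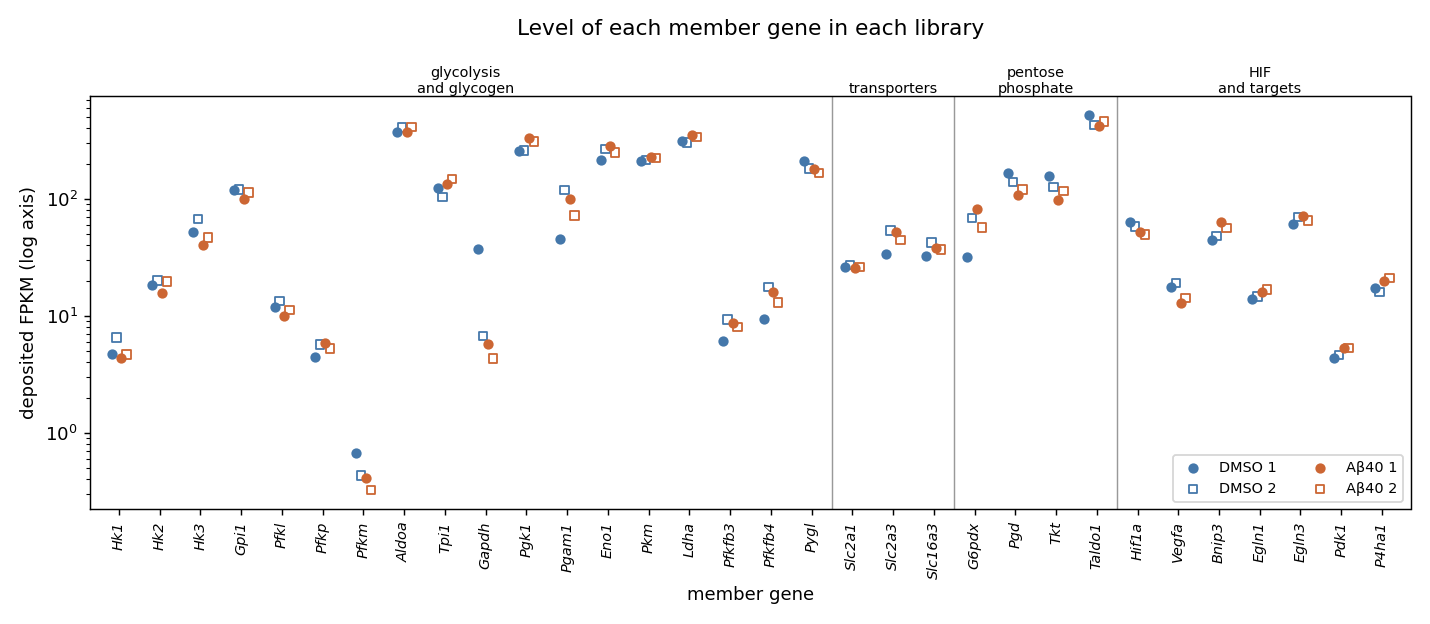
Deposited FPKM on a log axis for each of the 32 tested members in the 4 libraries, filled symbols for replicate 1 and open for replicate 2. Levels ran from below 1 FPKM for Pfkm to between 416 and 517 FPKM for Taldo1, and the groups lay close together for most genes.

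In the upper part of glycolysis all hexokinase, isomerase and phosphofructokinase genes but Pfkp had a log2 fold change below 0, and none was called. Hk3 (ENSMUSG00000025877, mm10 chromosome 13, 55005985 to 55021385) was at 191, 248, 149 and 173 CPM, both Aβ40 libraries below both DMSO libraries, which gave -0.44 (SE 0.19) on the log2 scale, 95% confidence interval -0.88 to -0.0033 (edgeR quasi-likelihood, Benjamini-Hochberg adjusted p = 0.405). Without DMSO 1 it was at -0.62, and without DMSO 2 at -0.25. Hk1 was at 40.8, 55.8, 37.6 and 40.2 CPM, apart in the same direction but with DMSO 1 close to Aβ40 2, and Hk2 at 109, 120.4, 94.8 and 118 CPM, where the groups overlapped. Their log2 fold changes were -0.31 (SE 0.20) and -0.11 (SE 0.18). Gpi1, glucose 6-phosphate isomerase, was at 768, 775, 649 and 738 CPM (-0.15, SE 0.18), and Pfkl at 79, 89.9, 67.3 and 75.5 CPM (-0.24, SE 0.17), each with both Aβ40 libraries below both DMSO libraries. Pfkp, at 60.1, 76.3, 79.3 and 71.6 CPM, overlapped between the groups (0.15, SE 0.19). Pfkm had counts of 42, 27, 24 and 21 and could not be resolved (-0.57, SE 0.55).

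From aldolase to lactate dehydrogenase every gene but Gapdh had a log2 fold change above 0, and none was called. Aldoa was at 1092, 1186, 1092 and 1212 CPM, and the groups overlapped (0.02, SE 0.19). Tpi1, triosephosphate isomerase, was at 344, 286, 374 and 412 CPM, higher in both Aβ40 libraries (0.32, SE 0.18; adjusted p = 0.514). Pgk1 (ENSMUSG00000062070, mm10 chromosome X, 106187100 to 106203699) was at 573, 583, 755 and 699 CPM. Its DMSO pair differed little and both Aβ40 libraries lay above it, at 578 ± 7.02 CPM and 727 ± 39.1 CPM (SD, n = 2 each), a 1.26-fold difference that was not called (95% confidence interval -0.07 to 0.74 on the log2 scale; adjusted p = 0.486). Ldha, at 1032, 1007, 1188 and 1126 CPM, and Pkm, at 1062, 1077, 1157 and 1132 CPM, were also apart toward higher values, by 0.18 (SE 0.18) and 0.10 (SE 0.18) on the log2 scale. Eno1, at 1150.2, 1443, 1544 and 1356 CPM, overlapped (0.16, SE 0.21). Over all 18 glycolytic and glycogen genes, 4 were apart toward higher and 7 toward lower values. Together these were 61.1%, against 45.1% of all tested genes and 49.4% of those with a mean of at least 20 CPM. In the further lists described below it was 31.8% of 22 genes of glycolysis and pyruvate metabolism and 46.7% of 15 glycogen genes. The median log2 fold change of the 18 genes was 0.05. It was -0.15 without DMSO 1 and 0.08 without DMSO 2.

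Gapdh and Pgam1 differed more between the DMSO libraries than between the groups. Gapdh, glyceraldehyde 3-phosphate dehydrogenase (ENSMUSG00000057666, mm10 chromosome 6, 125161715 to 125166467), had counts of 2905, 520, 410 and 345, or 156, 28, 24 and 18 CPM. DMSO 1 stood alone, and DMSO 2 lay near the Aβ40 libraries. The log2 fold change was -2.13 (SE 0.62) with an interval from -3.53 to -0.73, the widest difference of the members, and it was not called (adjusted p = 0.296). Without DMSO 1 it was -0.42, and without DMSO 2 it was -2.90. Gapdh was called lower with no filter on low counts, at -2.13, and with crossed replicate numbers as a block, at -1.69. In FPKM, Gapdh was at 37.5, 6.73, 5.70 and 4.32 FPKM, below every other enzyme from aldolase to lactate dehydrogenase in each library. Mouse Gapdh has many processed copies in the genome, and the notes used here do not say how reads that align to several places were counted, so its level is uncertain. Pgam1, phosphoglycerate mutase, was at 83.6, 218, 187 and 133 CPM, lowest in DMSO 1 and highest in DMSO 2, with both Aβ40 libraries between them (0.08, SE 0.38). Its log2 fold change was -0.45 without DMSO 1 and 0.92 without DMSO 2.

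The regulators and the glycogen enzyme were not called with all 4 libraries. Pfkfb3 and Pfkfb4 make fructose 2,6-bisphosphate, the activator of phosphofructokinase, and were at 46, 70.5, 67.4 and 61.7 CPM and at 46.3, 86.5, 78.6 and 64.2 CPM. In both genes DMSO 1 was the lowest and DMSO 2 the highest library, and the log2 fold changes were 0.15 (SE 0.22) and 0.11 (SE 0.28). Pfkfb4 was -0.28 without DMSO 1 and 0.61 without DMSO 2. Pygl, glycogen phosphorylase of the liver and leukocyte type, was at 1442, 1256, 1252 and 1157 CPM, with both Aβ40 libraries below both DMSO libraries by a narrow margin (-0.16, SE 0.19).

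**Figure D3:**
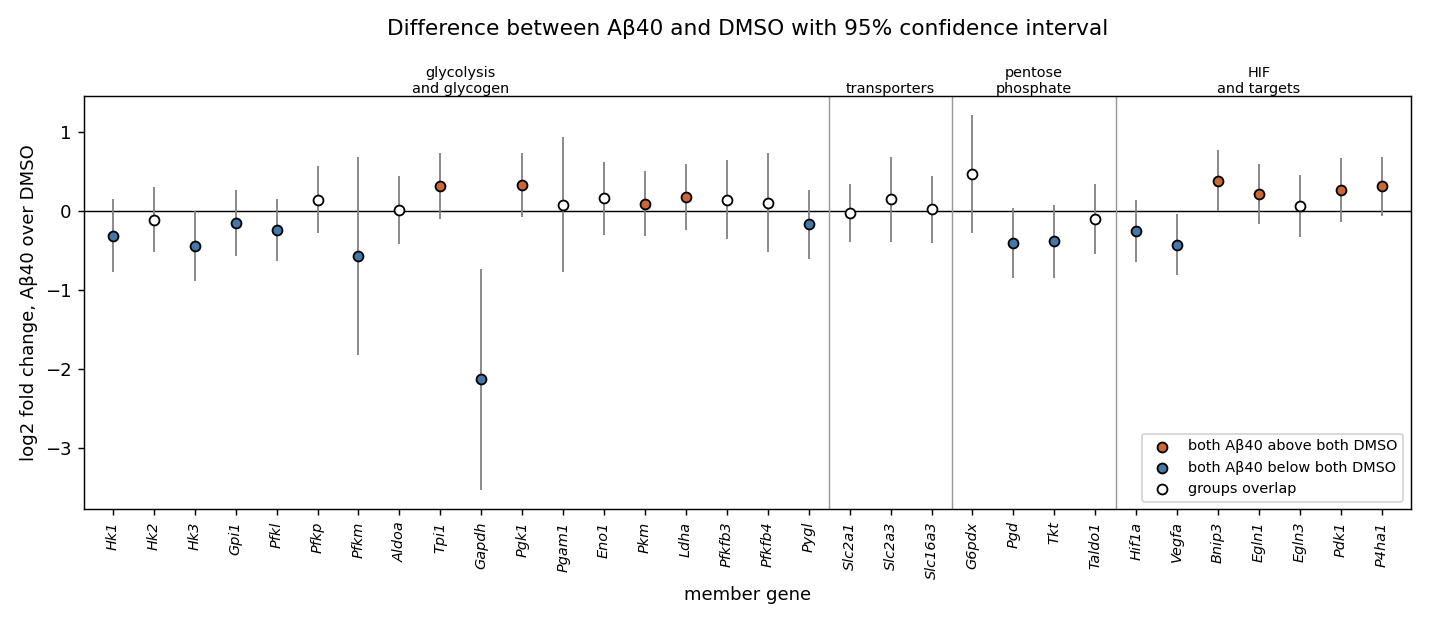
Log2 fold change (Aβ40 over DMSO) of each member with its 95% confidence interval from the edgeR fit; orange points have both Aβ40 libraries above both DMSO libraries, blue points both below, white points overlap. Most intervals span 0, that of Gapdh is the widest, and 5 of the 7 points of the HIF group lie above 0.

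The transporters showed no separation of the groups. Slc2a1, the basal glucose transporter, varied least over the 4 libraries among the members, at 91.6, 96.1, 92.2 and 92.5 CPM, -0.02 on the log2 scale, 95% confidence interval -0.39 to 0.34. Slc2a3, the high-affinity glucose transporter, was at 248, 392, 385 and 324 CPM (0.15, SE 0.24), and Slc16a3, which exports lactate, at 174, 225, 207 and 199 CPM (0.02, SE 0.19). In both, DMSO 1 was lowest and DMSO 2 highest. All 3 overlapped between the groups, and their median was 0.02, from -0.14 without DMSO 1 to 0.21 without DMSO 2.

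In the pentose phosphate pathway G6pdx, the gateway enzyme, and Pgd and Tkt, which follow it, lay on opposite sides of 0, and none was called. Pgd, 6-phosphogluconate dehydrogenase and the other NADPH-yielding step (ENSMUSG00000028961, mm10 chromosome 4, 149149991 to 149166771), was at 1074, 899, 710.5 and 781 CPM. Both Aβ40 libraries were below both DMSO libraries, at 746 ± 49.7 CPM against 986 ± 123 CPM (SD, n = 2 each), or -0.40 (SE 0.19) on the log2 scale, interval -0.84 to 0.03 (adjusted p = 0.439). Tkt, transketolase of the non-oxidative branch, was at 1157, 932, 732 and 871 CPM, apart in the same direction (-0.38, SE 0.20; adjusted p = 0.482). Without DMSO 2 both Pgd and Tkt were at -0.54, and without DMSO 1 they were at -0.27 and -0.22. Taldo1 was at 1128, 928, 919 and 1002 CPM, with overlapping groups (-0.10, SE 0.20).

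G6pdx, glucose 6-phosphate dehydrogenase (ENSMUSG00000031400, mm10 chromosome X, 74409483 to 74429194), was at 99.4, 212, 254 and 177 CPM. DMSO 1 was the lowest library, and DMSO 2 lay between the Aβ40 libraries. The log2 fold change of 0.47 (SE 0.33) had an interval from -0.27 to 1.21 (adjusted p = 0.596). It was 0.02 without DMSO 1, and 1.10 without DMSO 2. The 4 enzymes together took 0.330% and 0.321% of all counts in the DMSO libraries and 0.253% and 0.282% in the Aβ40 libraries, the one group of the 4 whose share of counts was apart between conditions. Their median log2 fold change was -0.24, from -0.39 without DMSO 2 to -0.10 without DMSO 1. The 8 further genes of pentose and ribose phosphate metabolism described below had a median of 0.22. Of them 4 were apart toward higher values (50%, against 23.2% of all tested genes) and 0 toward lower (against 21.9%).

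The HIF group had the smallest median standard error of the 4 groups, 0.17 on the log2 scale. Of its 7 genes 6 were apart between DMSO and Aβ40, 4 toward higher and 2 toward lower values, with 0 called. That was 85.7%, against 45.1% of all tested genes and 49.4% of those with a mean of at least 20 CPM. Among the 19 further hypoxia targets described below it was 26.3%, and among the 8 tested genes of the HIF machinery 25%. Hif1a itself was at 376, 345, 311 and 296 CPM, lower in both Aβ40 libraries (-0.25, SE 0.17; adjusted p = 0.596). Vegfa, the vascular growth factor (ENSMUSG00000023951, mm10 chromosome 17, 46016993 to 46032369), was at 75.3, 82.3, 56.1 and 61.3 CPM, or 78.8 ± 5 CPM against 58.7 ± 3.68 CPM (SD, n = 2 each), a 0.745-fold ratio, or -0.42 (SE 0.17) on the log2 scale, interval -0.81 to -0.04 (adjusted p = 0.375). Both genes lay below their DMSO level in all alternatives, Vegfa between -0.51 and -0.36.

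The other HIF targets lay on the other side. Bnip3, a mitochondrial protein of mitophagy (ENSMUSG00000078566, mm10 chromosome 7, 138890836 to 138909519), was at 102, 109.8, 147 and 129.6 CPM, 1.31-fold higher in the fit and apart between the groups (0.39, SE 0.17, adjusted p = 0.404). P4ha1, a collagen prolyl hydroxylase subunit (ENSMUSG00000019916, mm10 chromosome 10, 59323296 to 59373304), was at 71.8, 66.1, 83.8 and 87.6 CPM (0.31, SE 0.17; adjusted p = 0.478). Pdk1, the kinase that shuts pyruvate dehydrogenase, was at 34, 36, 42.4 and 41.7 CPM (0.26, SE 0.18), and Egln1, the main prolyl hydroxylase that marks HIF, at 49.9, 52.8, 58.6 and 60.9 CPM (0.22, SE 0.17). In all 4 both Aβ40 libraries were above both DMSO libraries. Egln3, another prolyl hydroxylase, was at 163, 188, 193 and 176 CPM, and its groups overlapped (0.07, SE 0.17). The median of the group was 0.22, and it stayed between 0.16 and 0.24 over the alternatives, beside a median of 0.01 over all tested genes.

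**Figure D4:**
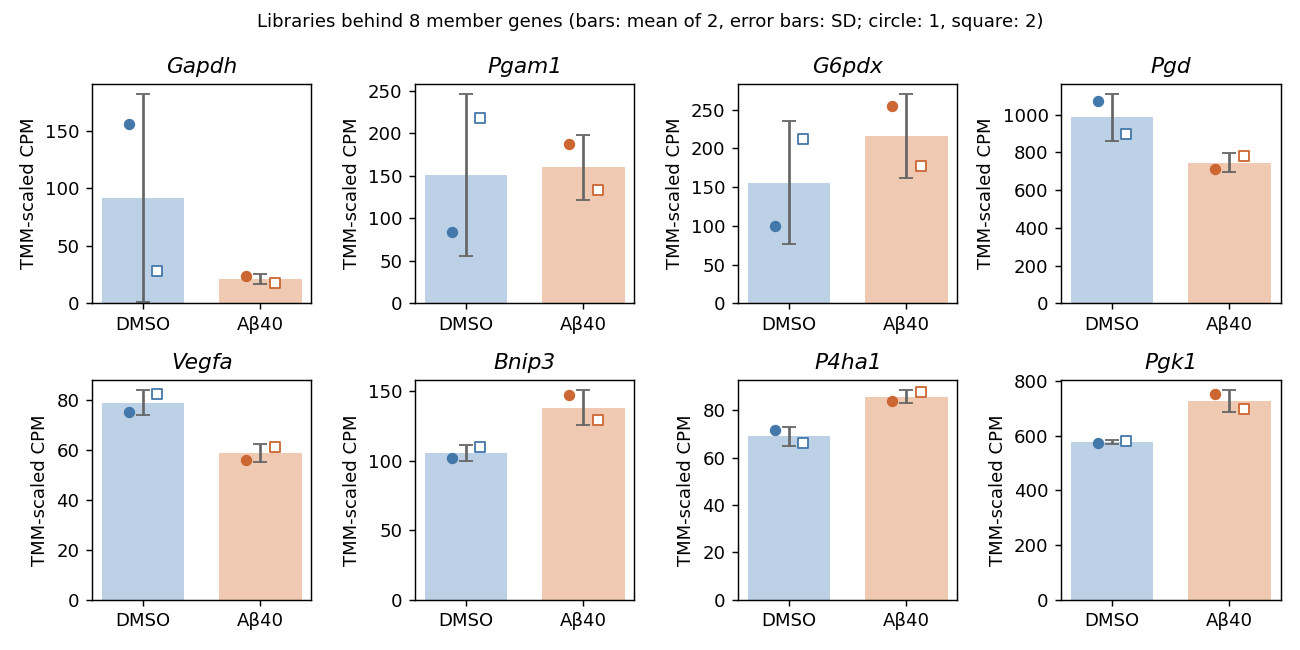
TMM-scaled CPM of 8 member genes; bars are the mean of 2 libraries, error bars the SD, circles replicate 1 and squares replicate 2. In the upper row DMSO 1 stands apart for Gapdh, Pgam1 and G6pdx, and in the lower row the 2 libraries of each condition lie close together.

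Further genes of these pathways also had no calls: of 106 listed, 89 were tested, and 0 were called higher and 0 lower by edgeR's quasi-likelihood test or by DESeq2, with 5 on the higher and 2 on the lower side at an unadjusted p under 0.05 (6.51% and 5.72% of all tested genes). Their median log2 fold change was 0.08. Highest and lowest below refer to log2 fold changes of genes that averaged 5 CPM or more. Among 22 genes of glycolysis and pyruvate metabolism, Bpgm, the bisphosphoglycerate mutase abundant in red cells, was highest, at 14.6, 16.8, 27.8 and 22.2 CPM (0.67, SE 0.22), Eno3 lowest (-0.20, SE 0.36), and the ADP-dependent glucokinase gene Adpgk most abundant (-0.15, SE 0.19). Of 9 transport genes, Slc16a1, the lactate and pyruvate carrier MCT1, was at 37.5, 30.9, 50.7 and 52.6 CPM (0.59, SE 0.19), both Aβ40 libraries above both DMSO libraries. Slc16a6 was at -0.35 (SE 0.23) and Bsg, the chaperone of these carriers, at 0.16 (SE 0.18).

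Of 8 further genes of pentose and ribose phosphate metabolism, Prps1, which makes the ribose donor of nucleotide synthesis, was at 20.8, 17.9, 27.7 and 33.9 CPM (0.67, SE 0.21), against -0.24 (SE 0.26) for H6pd and 0.13 (SE 0.21) for Pgls. Of 15 glycogen genes, Gys1, glycogen synthase, was lowest, at 64.6, 57.6, 36.8 and 46.9 CPM (-0.55, SE 0.19), G6pc3, the glucose 6-phosphatase neutrophils need, was highest (0.26, SE 0.27), and Ugp2 most abundant (-0.08, SE 0.17). The 8 tested genes of the HIF machinery ran, at that level, from Arnt, the partner of HIF, at -0.27 (SE 0.21) to Eloc, part of the ligase that degrades it, at 0.22 (SE 0.24), with Rbx1 most abundant (-0.07, SE 0.22). Of 19 further hypoxia targets, Fam162a was highest, at 26.6, 18.1, 33.3 and 38.7 CPM (0.69, SE 0.24), and Cited2, which competes with HIF for its coactivator, lowest, at 116, 124, 85.4 and 91.4 CPM (-0.44, SE 0.16), while Ero1l was most abundant (0.08, SE 0.20). The median of these 19 genes was 0.01. Among 8 regulators, Txnip, a brake on glucose uptake, was at 0.10 (SE 0.19), with Mlx at 0.32 (SE 0.28) and Mlxip at -0.46 (SE 0.25).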

How the data were processed

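The authors deposited raw read counts per gene, whole numbers used as they are, and FPKM per gene. The genome build mm10 and the tools featureCounts 1.5.0-p3 and HISAT2 2.0.5 are listed, without roles, per the submitters' processing notes, and strandedness, annotation release and multiply aligned reads are not given in the sources read. Deposited FPKM followed from counts, gene length and a scaled library total between 17389300 and 19335500.

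Counts were fitted in R 4.3.3 with edgeR 4.0.16: filterByExpr, TMM, and the quasi-likelihood test of Aβ40 against DMSO without a replicate block, with Benjamini-Hochberg adjustment over 13479 genes and 2 residual and 6.88 prior degrees of freedom. Intervals cover 95%. Only the edgeR fit was tested on simulated counts with known fold changes. Alternatives used other scalings and filters, DESeq2 1.42.0, limma 3.58.1 on FPKM, a replicate block, and each library left out. Members, gene lists and tests were chosen with earlier results of these data known. Named genes were all members and, per further list, called genes and, at a mean of at least 5 CPM, the highest, lowest and most abundant. Marker genes S100a8, S100a9, Ly6g and Ltf, and the copies of members, were named after their values were seen. Ahsp was not found by symbol.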

Additional observations from a re-analysis of the deposited data

How the results depend on the processing

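With 2 libraries a group, the calls moved with the library left out. Leaving out each library gave 0 to 3 members called higher and 0 to 3 lower, 0 to 805 of all genes higher and 0 to 471 lower, and 0 to 7 genes of the further pathway lists higher and 0 to 2 lower; the highest counts for members came without DMSO 2 and those for all genes without DMSO 1. No filter on low counts gave 1 member lower (Gapdh), with 185 of all genes higher and 70 lower. DESeq2 gave 102 of all genes higher and 33 lower, limma on log2(FPKM + 1) and on log2(FPKM + 0.1) 0 higher each, and library-size scaling 1 lower.

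With the replicate block 27 of all genes were called higher and 0 lower, against 17 and 0 without it, and 0 members. The numbers were not shown to pair the samples: the deviations of same-numbered libraries correlated at -0.226 over genes. With crossed numbers as a block, an alternative chosen after seeing the data, 445 of all genes were called higher and 276 lower, 1 member (Gapdh) lower, and 4 further pathway genes higher and 1 lower.

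The median log2 fold change over libraries left out ran from -0.10 to 0.12 for all members, -0.15 to 0.080 for glycolytic and glycogen genes, -0.39 to -0.10 for pentose phosphate enzymes and 0.17 to 0.24 for the HIF group, and library-size scaling gave -0.024 for glycolytic genes and 0.16 for the HIF group. Among single members the sign changed in 19 of 416 fits, over 11 genes near 0. With a library left out these ran from -0.30 to 0.042 for Hk2, -0.019 to 0.32 for Pfkp, -0.081 to 0.087 for Aldoa, -0.45 to 0.92 for Pgam1, -0.13 to 0.47 for Pfkfb3, -0.28 to 0.61 for Pfkfb4, -0.059 to 0.0011 for Slc2a1, -0.14 to 0.50 for Slc2a3, -0.15 to 0.21 for Slc16a3, -0.24 to 0.047 for Taldo1 and -0.031 to 0.16 for Egln3. Library-size scaling gave -0.038 for Aldoa, -0.0096 for Pgam1 and -0.041 for Slc16a3. The causes of these changes were not tested. The scarcest member, Pfkm, with 21 to 42 counts a library, had a 95% confidence interval from -1.82 to 0.68.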

Other observations

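Retrotransposed and pseudogene copies of several members are listed in the count table under their own names, and their counts, singled out after the values were seen, differed between the libraries as follows, in the order DMSO 1, DMSO 2, Aβ40 1 and Aβ40 2. The Eno1 copy Eno1b had 159, 443, 479 and 235 counts. Copies of Ldha summed to 15, 54, 65 and 34 counts and those of Pgam1 to 11, 35, 33 and 16. In these 3 sets DMSO 1 was the lowest library and Aβ40 2 the next. Copies of Tpi1 summed to 53, 67, 51 and 56 counts and the copy of Pgk1 had 29, 35, 47 and 50, without that order. The 2 copies of Gapdh found by symbol summed to 7, 2, 0 and 2 counts, and those of G6pdx and Aldoa to 0. No set of copies found by symbol exceeded 1.81% of its parent's counts in any library. Copies listed under other symbols were not searched for, so these sums may be incomplete.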
